A study of Homo sapiens with 8 samples.

Results

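The enzymes that make serine from glucose and pass its carbon to folate were followed in THP-1 cells, a line grown from a human acute monocytic leukemia. Parental cells were set beside cells made resistant to DAC (decitabine), a nucleoside drug that enters DNA and depletes its methylation. The 8 genes were PHGDH, PSAT1, PSPH, SHMT1, SHMT2, MTHFD2, MTHFD1L and ALDH1L2, found by symbol among the 60664 genes of the deposited table. They were chosen by the FPKM values of PSAT1, which fell with DAC in parental cells the most of all genes on the log2(FPKM + 1) scale but not on every scale, so that comparison is given below as a description, with no test.

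RNA was sequenced from 4 groups of 2 libraries each, all of genotype WT: parental cells with DMSO, parental cells with 1 µM DAC, DAC-resistant cells with DMSO and DAC-resistant cells with 1 µM DAC. Every group was treated for 6 days and grown in RPMI 1640 with 10% fetal bovine serum. The DAC-resistant line came from one long course of pulsed DAC, followed by a drug-free interval before the experiment, so both groups made from it carry earlier DAC exposure and a difference from parental cells cannot be told apart from that history. The labels call the replicates biological but do not say that they were separate cultures, so p-values measure the spread between these libraries, which may be technical.

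Serine is built from the glycolytic intermediate 3-phosphoglycerate. PHGDH oxidizes it, PSAT1 transfers the amino group from glutamate, and PSPH removes the phosphate. Serine hydroxymethyltransferases (SHMT1 in the cytosol, SHMT2 in mitochondria) then split serine into glycine and a carbon unit on tetrahydrofolate. In mitochondria MTHFD2 oxidizes that unit, MTHFD1L releases it as formate for purine and thymidylate synthesis outside, and ALDH1L2 burns it to carbon dioxide while making NADPH. ATF4, a transcription factor of the amino acid response, is a known activator of many of these genes and binds C/EBP-ATF response elements.

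On the human genome (GRCh38) PHGDH lies at chr1:119648411-119744218, PSAT1 at chr9:78297125-78330093 and PSPH at chr7:56011051-56051604. SHMT1 lies at chr17:18327860-18363563 and SHMT2 at chr12:57229573-57234935. MTHFD2 lies at chr2:74186172-74217565, MTHFD1L at chr6:150865679-151101887 and ALDH1L2 at chr12:105019784-105107643. These are spans of the GENCODE annotation, and PSPH, SHMT1 and ALDH1L2 are on the minus strand. The genes are on 7 chromosomes, with SHMT2 and ALDH1L2 on the same one.

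Promoters are shown because most of these genes moved together with DAC in parental cells. RefSeq (GRCh38.p14) gave a start site for 5 of the 8, and no entry was matched for PSPH, SHMT2 and ALDH1L2. The lines below give the 250 bases before the start, 5′ to 3′ on the strand of the gene. Capitals mark CCAAT (the CCAAT box, written ATTGG where it lies on the other strand) and TGATGNAA (the core of the C/EBP-ATF response element), both searched on both strands.
PHGDH: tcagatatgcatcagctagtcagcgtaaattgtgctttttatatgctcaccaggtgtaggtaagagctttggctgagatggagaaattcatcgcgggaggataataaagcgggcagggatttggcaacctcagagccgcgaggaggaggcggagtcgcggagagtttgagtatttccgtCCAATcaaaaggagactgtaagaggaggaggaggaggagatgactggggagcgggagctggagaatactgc
PSAT1: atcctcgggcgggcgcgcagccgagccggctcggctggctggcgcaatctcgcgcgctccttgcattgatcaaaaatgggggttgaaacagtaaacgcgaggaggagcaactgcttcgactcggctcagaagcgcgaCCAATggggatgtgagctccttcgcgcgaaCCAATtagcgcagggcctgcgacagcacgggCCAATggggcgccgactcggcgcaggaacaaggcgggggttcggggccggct
SHMT1: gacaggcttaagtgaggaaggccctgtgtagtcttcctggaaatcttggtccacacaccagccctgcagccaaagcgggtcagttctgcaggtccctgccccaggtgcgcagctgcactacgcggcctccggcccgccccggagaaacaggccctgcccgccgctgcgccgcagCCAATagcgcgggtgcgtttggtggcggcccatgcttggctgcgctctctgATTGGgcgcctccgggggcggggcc
MTHFD2: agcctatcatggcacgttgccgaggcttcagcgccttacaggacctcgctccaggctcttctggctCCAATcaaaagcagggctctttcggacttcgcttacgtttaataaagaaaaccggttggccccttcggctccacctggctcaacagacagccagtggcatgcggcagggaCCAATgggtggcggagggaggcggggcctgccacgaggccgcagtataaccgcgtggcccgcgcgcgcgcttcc
MTHFD1L: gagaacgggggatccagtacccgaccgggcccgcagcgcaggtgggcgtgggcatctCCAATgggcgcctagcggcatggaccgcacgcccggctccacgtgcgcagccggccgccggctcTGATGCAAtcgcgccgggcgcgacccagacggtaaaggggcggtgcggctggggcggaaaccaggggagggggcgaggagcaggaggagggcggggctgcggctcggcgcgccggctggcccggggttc
The windows are chr1:119711684-119711933 (plus strand) for PHGDH, chr9:78296875-78297124 (plus) for PSAT1, chr17:18363551-18363800 (minus) for SHMT1, chr2:74198365-74198614 (plus) for MTHFD2 and chr6:150866236-150866485 (plus) for MTHFD1L. MTHFD1L had more than one start in RefSeq, and the first listed was used.

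PSAT1 held 3 CCAAT boxes, at 113, 83 and 52 bases before the start. MTHFD2 held 2, SHMT1 held 2, and PHGDH and MTHFD1L held 1 each. Of 35116 RefSeq promoters of this length, 32.01% held at least 1. TGATGNAA was found in MTHFD1L alone of the 5, as TGATGCAA at 129 bases before the start, and in 3.14% of all promoters. CACGTG, the E-box, was searched too and was found in MTHFD1L alone of the 5, beside 6.34% of all promoters. The number of CG pairs, the target of DNA methylation, was 33 in MTHFD1L, 30 in PSAT1, 21 in MTHFD2, 19 in SHMT1 and 11 in PHGDH, beside a median of 11 over all promoters. Whether these motifs go with the change under DAC was not tested. The matches and the CG number of MTHFD1L depended on the start used. Windows of other starts, at chr6:150866083-150866332 and chr6:151006758-151007007, held no TGATGNAA and no CACGTG. The latter window also held no CCAAT and only 5 CG pairs. A match is a description of letters, and methylation was not measured in these libraries.

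Values are in FPKM, read counts scaled by exon length and by the library's total, which the authors computed from HTSeq counts. Reads recovered from the steps of the values numbered between 28646723 and 33347614 on genes per library, with the parental DAC libraries the shallowest. Behind the least abundant values were 582 and 631 reads of MTHFD1L in parental cells with DAC. Changes were fitted with limma on log2(FPKM + 1) over the 14899 genes that reached 1 FPKM in at least 2 libraries, and all 8 enzymes passed. A gene is called raised or lowered at a Benjamini-Hochberg adjusted p under 0.05 over all genes tested. The smallest p an exact two-sided permutation test of 2 libraries against 2 can give is 0.333, so the test leans on the spread limma pools over genes.

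The monocytic markers fitted the label, with all 10 of the list at 1 FPKM or more in some library. Their summed level differed between groups. In parental cells it was 355 and 366 FPKM without DAC, 461 and 472 FPKM with it, and between 248 and 263 in the 4 libraries of the resistant line. The markers did not all move one way with DAC in parental cells. CD14 went from 1.45 and 1.58 to 19.0 and 20.8 FPKM and LYZ from 11.4 and 12.6 to 46.7 and 48.9 FPKM, while CD4 went from 151 and 163 to 121 and 125 FPKM and CD33 from 9.92 and 9.74 to 8.10 and 7.61 FPKM. T cell markers summed to 0.727 FPKM at most, epithelial ones to 0.516, erythroid ones to 2.94 and B cell ones to 4.27. The fibroblast markers, COL1A1 and COL1A2, summed to 0.693 and 0.644 FPKM in parental DMSO and to between 4.40 and 6.14 FPKM in the other libraries. Plasma cell markers summed to 2.00 and 2.24 FPKM in parental DMSO and to between 5.97 and 7.38 FPKM in the others. The part of these shifts in the enzymes' levels was not tested. In bulk RNA, fewer cells expressing a gene and less RNA per cell cannot be told apart.

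In parental cells, DAC was accompanied by lower RNA of the whole serine synthesis arm and of the mitochondrial folate arm, while the groups of the cytosolic SHMT1 overlapped. PSAT1 was at 260 and 262 FPKM with DMSO and at 36.3 and 39.9 FPKM with DAC, which is 14.6% of the DMSO mean. On the log2(FPKM + 1) scale it had the lowest log2 fold change of the 14899 genes, at -2.74, but it was 65th with a pseudocount of 0.1 or with voom on recovered reads, 13th with TPM and 5th under quantile normalization. INHBE, of the ATF4 list and named here after its values were seen, was at 11.6% of its DMSO mean. On the log2(FPKM + 1) scale ALDH1L2 ranked 4th by fall, PHGDH 14th and SHMT2 61st. PSPH ranked 430th, MTHFD1L 511th, MTHFD2 678th and SHMT1 7005th.

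PHGDH, the entry step of the pathway, was at 60.0 and 61.2 FPKM with DMSO and at 14.2 and 15.2 FPKM with DAC. PSPH, the last step, was at 19.1 and 20.3 FPKM with DMSO and at 9.59 and 9.08 FPKM with DAC. Each DAC library of both genes was below each DMSO library. The DAC mean was 24.2% of the DMSO mean for PHGDH and 47.4% for PSPH, so the 3 steps of serine synthesis were lower by unequal amounts.

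ALDH1L2 was at 35.9 and 34.5 FPKM with DMSO and at 4.80 and 5.52 FPKM with DAC, 14.7% of the DMSO mean. SHMT2 was at 98.6 and 102 FPKM with DMSO and at 36.5 and 32.0 FPKM with DAC. Both were far below their DMSO libraries, with log2 fold changes of -2.56 and -1.53. MTHFD2 was at 32.1 and 32.9 FPKM with DMSO and at 17.5 and 17.6 FPKM with DAC. MTHFD1L was at 9.56 and 9.72 FPKM with DMSO and at 4.33 and 4.69 FPKM with DAC. Their log2 fold changes were -0.85 and -0.95.

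SHMT1 was at 7.66 and 7.83 FPKM with DMSO and at 8.05 and 7.75 FPKM with DAC. Its groups overlapped, and its log2 fold change of 0.03 turned to -0.07 under quantile normalization and -0.08 under upper-quartile scaling. In all, both DAC libraries lay below both DMSO libraries for 7 of the 8 genes. Over all genes 34.5% had both DAC libraries below both DMSO libraries, and 24.1% were called lowered and 33.6% raised in this comparison, but since it chose the genes, nothing is read from their count.

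**Figure D1:**
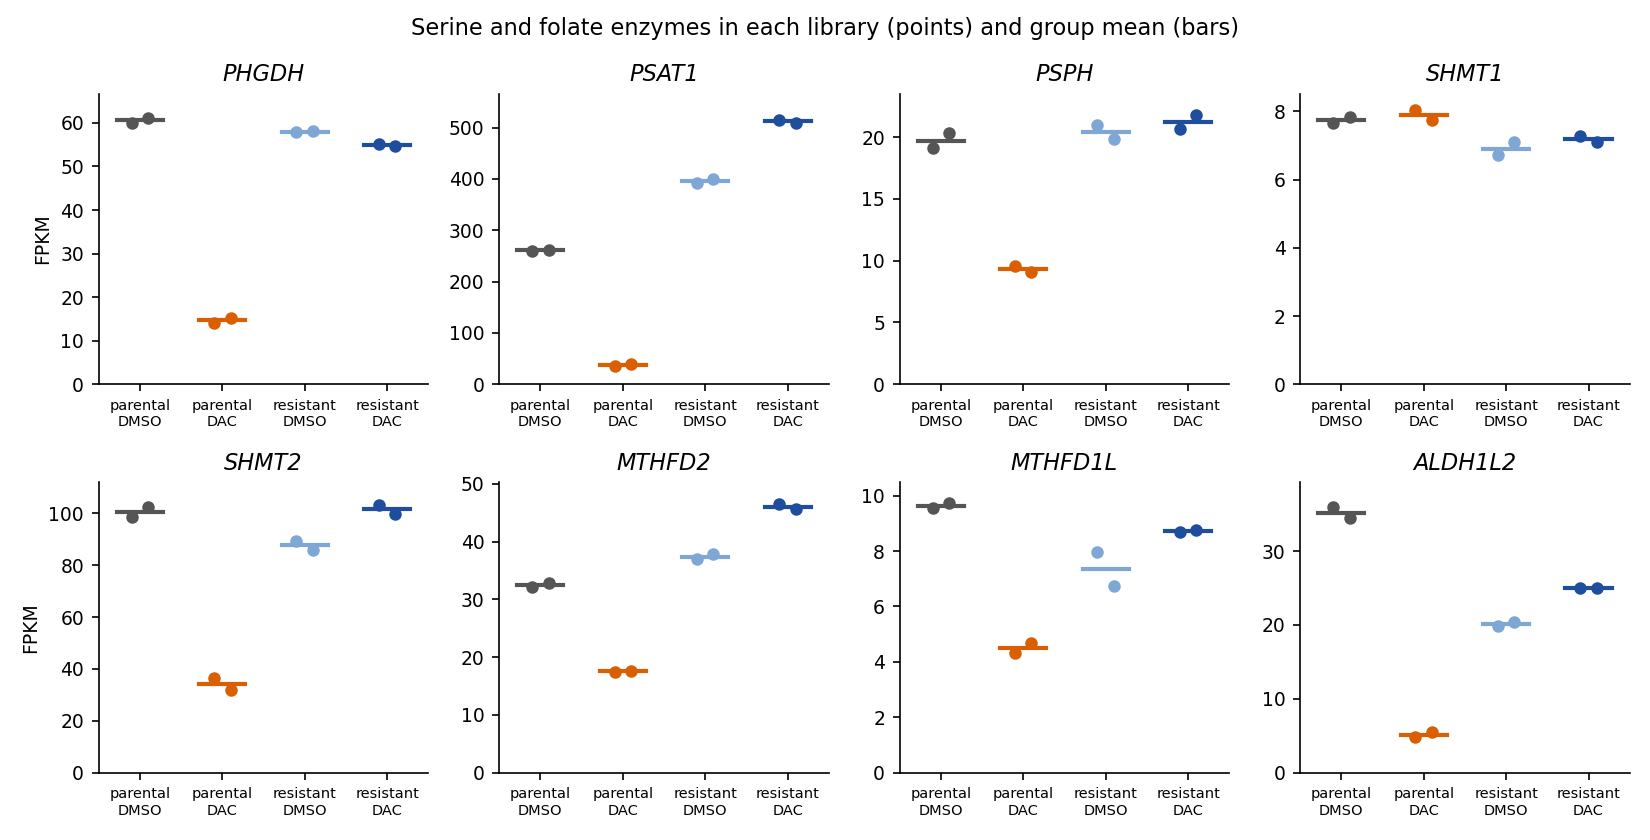
FPKM of the 8 enzymes in each library (points; horizontal bars are group means, n = 2), with groups along the horizontal axis and a vertical axis from 0 in each panel. The parental DAC libraries lie lowest for every enzyme except SHMT1, and PSAT1 is highest in DAC-resistant cells with DAC, at 516 and 509 FPKM.

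The question for DAC-resistant cells was whether the same dose of DAC changed these enzymes. The rule that chose the genes did not use this comparison, but the choice was made with earlier results of these data known. PSAT1, MTHFD2 and ALDH1L2 were raised, none of the 8 was lowered, and 5 did not pass the test. Over all genes 5.88% were raised and 5.35% lowered. By a stricter rule, an absolute log2 fold change of 1 at p up to 0.01, none of the 8 was called, beside 0.235% of all genes. The median log2 fold change of the 8 was 0.22, beside 0.01 over all genes tested.

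PSAT1 was at 392 and 400 FPKM (396 ± 5.67, SD, n = 2) with DMSO and at 516 and 509 FPKM (512 ± 4.48) with DAC. Both DAC libraries were above both DMSO libraries, by 1.29-fold on the means. The log2 fold change was 0.37 (SE 0.04, 95% interval 0.27 to 0.47, adjusted p = 0.00455). In level, PSAT1 ranked 45th of the genes tested in DAC-resistant cells with DAC and 982nd in parental cells with DAC.

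MTHFD2, the mitochondrial dehydrogenase, was at 36.9 and 37.8 FPKM with DMSO and at 46.5 and 45.6 FPKM with DAC. The DAC libraries were the higher pair, and the log2 fold change was 0.29 (SE 0.03, 95% interval 0.23 to 0.36, adjusted p = 0.00261). ALDH1L2 was at 19.9 and 20.3 FPKM with DMSO and at 24.9 and 25.05 FPKM with DAC. Its log2 fold change was 0.30 (SE 0.06, adjusted p = 0.0232). That call is the weakest of the 3: leaving out any one of the 4 libraries gave an adjusted p between 0.0834 and 0.115, and no filter on low genes gave 0.082.

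SHMT2 was at 89.3 and 86.0 FPKM with DMSO and at 103 and 99.8 FPKM with DAC, with no overlap. Its log2 fold change of 0.21 (95% interval 0.07 to 0.35) had an adjusted p of 0.0739. The call depended on the setting, with 0.0267 among the genes of at least 5 FPKM on average and 8.5e-05 with voom on recovered reads. MTHFD1L was at 7.97 and 6.74 FPKM with DMSO and at 8.69 and 8.77 FPKM with DAC. Its 2 DMSO libraries differed more than those of any other of the 8 relative to their mean, and its log2 fold change of 0.22 (95% interval 0.04 to 0.40) had an adjusted p of 0.117, or 0.0289 with voom. Without DAC-resistant DMSO replicate 1 the change in MTHFD1L was 0.33 (adjusted p = 0.0585), and without DMSO replicate 2 it was 0.12 (adjusted p = 0.348).

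The other 2 steps of serine synthesis did not pass the test. PHGDH was at 58.0 FPKM in both DMSO libraries and at 55.1 and 54.6 FPKM with DAC, a log2 fold change of -0.08 (95% interval -0.16 to 0.00, adjusted p = 0.207). Both of its DAC libraries were the lower pair, and voom called it lowered with an adjusted p of 0.0265. PSPH was at 21.0 and 19.8 FPKM with DMSO and at 20.7 and 21.8 FPKM with DAC, overlapping, with a 95% interval of -0.07 to 0.18. SHMT1 was at 6.71 and 7.11 FPKM with DMSO and at 7.28 and 7.11 FPKM with DAC, with a 95% interval of -0.06 to 0.16.

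Side by side, the log2 fold change with DAC in parental and in DAC-resistant cells was -2.74 and 0.37 for PSAT1, -2.56 and 0.30 for ALDH1L2, -1.98 and -0.08 for PHGDH, and -1.53 and 0.21 for SHMT2. These pairs share no library. The difference between the 2 effects was not tested, because the parental effect chose the genes.

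**Figure D2:**
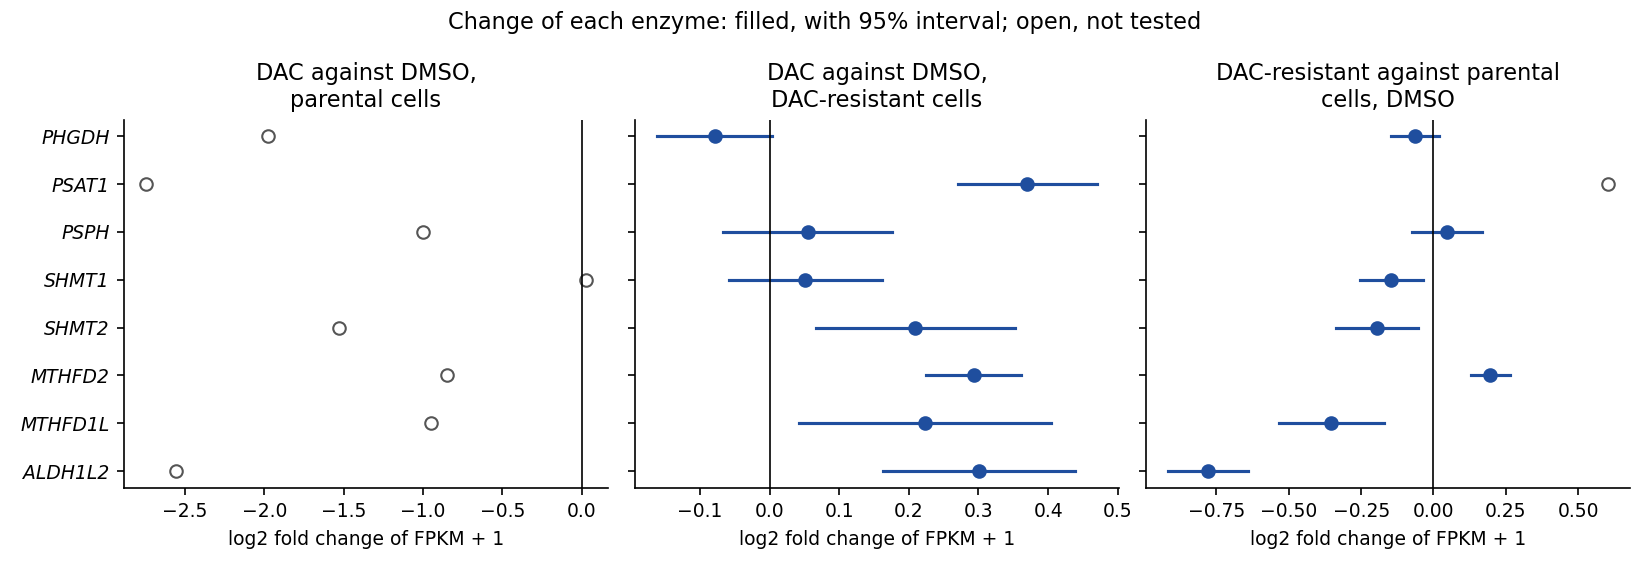
Log2 fold change of FPKM + 1 for each enzyme in 3 comparisons, each panel with its own horizontal scale. Filled points have 95% intervals from limma, and open points were not tested. In DAC-resistant cells the intervals of PSAT1, SHMT2, MTHFD2, MTHFD1L and ALDH1L2 lie above 0, before adjustment over all genes.

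DMSO-treated DAC-resistant and parental cells were compared to ask what the resistant line carries without the drug. This comparison shares the parental DMSO libraries with the one that chose the genes. PSAT1, higher as well, is left out of the counts here, since its parental values chose it. Of the other 7 enzymes MTHFD2 was raised and ALDH1L2, MTHFD1L, SHMT2 and SHMT1 were lowered, beside 31.3% of all genes raised and 26.2% lowered. The share of raised genes among all called was 54.4%, and 44.7% under upper-quartile scaling. None met the stricter rule, which 8.73% of all genes met.

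PSAT1 was at 260 and 262 FPKM in parental cells and at 392 and 400 FPKM in DAC-resistant cells. This 1.52-fold higher level is a description, with no p, since the gene was chosen for its parental values. MTHFD2 was at 32.1 and 32.9 FPKM in parental cells and at 36.9 and 37.8 FPKM in DAC-resistant cells, which is a log2 difference of 0.20 (SE 0.03, adjusted p = 0.00116). The size of the MTHFD2 difference moved with the scaling, to 0.09 (adjusted p = 0.0339) under quantile normalization and 0.10 (adjusted p = 0.0219) under upper-quartile scaling.

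ALDH1L2 was at 35.9 and 34.5 FPKM in parental cells and at 19.9 and 20.3 FPKM in DAC-resistant cells, 57.1% of the parental mean. Its log2 fold change of -0.78 (SE 0.06, 95% interval -0.92 to -0.64, adjusted p = 5.4e-05) was the largest fall of the 8. MTHFD1L, at 9.56 and 9.72 FPKM against 7.97 and 6.74 FPKM, was also lower, with -0.35 (SE 0.08, adjusted p = 0.00684). In the mitochondrial arm the dehydrogenase MTHFD2 was thus up, while the enzymes of carbon release, MTHFD1L and ALDH1L2, were down. The mitochondrial SHMT2, given next, was lower too, with a less stable call.

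SHMT2 had a log2 fold change of -0.19 (SE 0.06, adjusted p = 0.0284). Leaving out parental replicate 1 or 2 or DAC-resistant replicate 1 or 2 each ended the call, with adjusted p between 0.0599 and 0.125, as did no filter (0.0936) and rescaling to TPM (0.132). SHMT1 had -0.15 (SE 0.05, adjusted p = 0.0325), and the call ended without parental replicate 1 (0.0777), parental replicate 2 (0.128) or DAC-resistant replicate 1 (0.153), with a replicate block (0.0531), with the 4 libraries alone (0.0753) and with TPM (0.184). PHGDH had -0.06 (95% interval -0.15 to 0.02, adjusted p = 0.163), a direction that turned to 0.01 with values rescaled to TPM. It was called lowered under quantile normalization (-0.17, adjusted p = 0.00561), upper-quartile scaling (-0.16, adjusted p = 0.00658) and voom (-0.07, adjusted p = 0.0191). PSPH had 0.05 (95% interval -0.07 to 0.17), which turned to -0.05 under quantile normalization and upper-quartile scaling.

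With DAC in both lines, the levels were far apart. PSAT1 was at 516 and 509 FPKM in DAC-resistant cells against 36.3 and 39.9 FPKM in parental cells, 13.5-fold. The ratio of means was 4.84 for ALDH1L2, 3.74 for PHGDH, 2.96 for SHMT2, 2.62 for MTHFD2, 2.27 for PSPH and 1.93 for MTHFD1L. SHMT1 was at 91.1% of its parental level. These 7 genes had both DAC-resistant libraries above both parental ones, as did 39.6% of all genes, and 32% of all genes were called raised. The comparison holds the parental DAC libraries that chose the genes and is a description.

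The balance between the steps also differed between groups. The ratio of PSAT1 to PHGDH, both per length, was 4.33 and 4.27 in the parental DMSO libraries and 2.56 and 2.63 in the DAC ones. The DAC-resistant line gave 6.77 and 6.90 with DMSO and 9.35 and 9.33 with DAC. The groups did not overlap. PSAT1 alone made up 66% of the summed FPKM of the 8 enzymes in both DAC-resistant libraries with DAC. In parental cells with DAC it made up 27.7% and 30.3%. The parental values of PSAT1 chose the genes, so these ratios and shares are a description.

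The ratio of mitochondrial SHMT2 to cytosolic SHMT1 was 12.9 and 13.1 in the parental DMSO libraries and 4.53 and 4.13 in the DAC ones. In DAC-resistant cells it was 13.3 and 12.1 with DMSO and 14.2 and 14.0 with DAC. The parental DAC libraries were the lowest, and the other 3 groups lay between 12.1 and 14.2. This too is a description, since the parental comparison chose the genes. The authors' lengths count all annotated exons, 9187 bases for PHGDH and 11443 for MTHFD2, so ratios between genes depend on these lengths while their shifts between libraries do not.

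By level in FPKM, the order in parental cells with DMSO was PSAT1, SHMT2, PHGDH, ALDH1L2, MTHFD2, PSPH, MTHFD1L and SHMT1. The libraries of neighbouring genes did not overlap. In DAC-resistant cells with DMSO, MTHFD2 was above PSPH and ALDH1L2, whose libraries overlapped at 19.8 to 21.0 and 19.9 to 20.3 FPKM. MTHFD1L and SHMT1 overlapped there as well. In parental cells with DAC, PSAT1 and SHMT2 came close, with SHMT2 replicate 1 at 36.5 FPKM and PSAT1 replicate 1 at 36.3 FPKM, and SHMT1 stood above ALDH1L2 and MTHFD1L while its own groups overlapped.

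Over the 8 libraries, the genes outside the pathway whose log2 level was most like that of PSAT1 were EIF2S2 (Pearson r = 0.998), a subunit of the translation factor eIF2, the alanyl-tRNA synthetase AARS1 (0.998), OGFRL1 (0.998), the small GTPase RAB10 (0.998) and LANCL1 (0.997). AARS1 had group means of 65.3 FPKM in parental DMSO, 24.4 in parental DAC, 87.5 in DAC-resistant DMSO and 103 in DAC-resistant DAC libraries. Among the enzymes, r with PSAT1 was 0.990 for MTHFD2, 0.982 for PSPH, 0.956 for SHMT2, 0.955 for PHGDH, 0.881 for ALDH1L2, 0.860 for MTHFD1L and -0.73 for SHMT1. MTHFD1L and ALDH1L2 were more like each other (0.982) than like PSAT1. The points share 4 groups and the low parental DAC pair, and the likeness is a description.

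The neighbouring pathway genes were read from 5 lists. With DAC in DAC-resistant cells the lists had 31 calls in all, but 40 with voom, 24 with a replicate block, 23 with TPM, 16 with only the 4 libraries compared, 15 with no filter on low values, 13 to 16 without any one library and 1 by the fold rule (a log2 size of 1 at p up to 0.01). A gene in more than 1 list, such as SLC7A11, is counted once in these totals. Among the genes named below, the calls of TRIB3, ATF5, PCK2, ATF4 and SLC38A2 there held under each of 13 alternatives other than the fold rule. ATF4 and its targets moved most often with DAC in DAC-resistant cells. Of 25 tested genes 17 were raised and none lowered, with a median log2 fold change of 0.32, beside 5.88% raised, 5.35% lowered and a median of 0.01 over all genes. Without DAC-resistant DAC replicate 2, 11 were raised, and without any one of the other libraries 12 to 13. The 17 include GDF15, a low gene averaging under 5 FPKM, whose change ran from 0.50 to 1.32 over the alternatives. With only genes averaging at least 5 FPKM, 22 of the list were tested, 17 raised and 1 lowered. In parental cells, as a description, both DAC libraries lay below both DMSO libraries for 20 of the 25 and above them for 5. The median was -0.94. Over all 14899 genes 5133 lay below (34.5%) and 6696 above, with a median of 0.06. The targets in this list are not the 8 enzymes, although PSAT1 and its neighbours are regarded as ATF4 targets too. That parental count is from the comparison that chose PSAT1.

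ATF4 itself was at 206 and 212 FPKM in parental cells with DMSO and at 108 and 109 FPKM with DAC. In DAC-resistant cells it was at 243 and 235 FPKM with DMSO and at 287 and 285 FPKM with DAC. The ATF4 libraries of DAC-resistant cells did not overlap, with a log2 fold change of 0.26 (SE 0.02, adjusted p = 0.00252). It was also higher in DAC-resistant than in parental cells with DMSO, by 0.19 (adjusted p = 0.000672), or by 0.10 to 0.27 across the other scalings.

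TRIB3, a pseudokinase that ATF4 induces, was at 50.5 and 45.5 FPKM with DMSO and at 156 and 146 FPKM with DAC in DAC-resistant cells. This log2 fold change of 1.63 (SE 0.07, adjusted p = 0.0003) was the largest of the list, and no other pathway gene tested reached 1. PCK2, the mitochondrial phosphoenolpyruvate carboxykinase, rose by 0.84 (adjusted p = 0.0011) and the transcription factor ATF5 by 0.64 (adjusted p = 0.0003). In parental cells the same genes had log2 fold changes of -1.13, -1.06 and -1.86 with DAC.

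DDIT3, which encodes the stress factor CHOP, differed from ATF4 in parental cells. It was at 14.2 and 16.1 FPKM with DMSO and at 21.7 and 19.9 FPKM with DAC there, and at 25.1 and 24.0 then 34.8 and 35.7 FPKM in DAC-resistant cells. It thus lay higher with DAC in both lines, with 0.50 (adjusted p = 0.00778) in DAC-resistant cells. ASNS, asparagine synthetase, stayed at or under 1.11 FPKM in every library and was not tested.

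**Figure D3:**
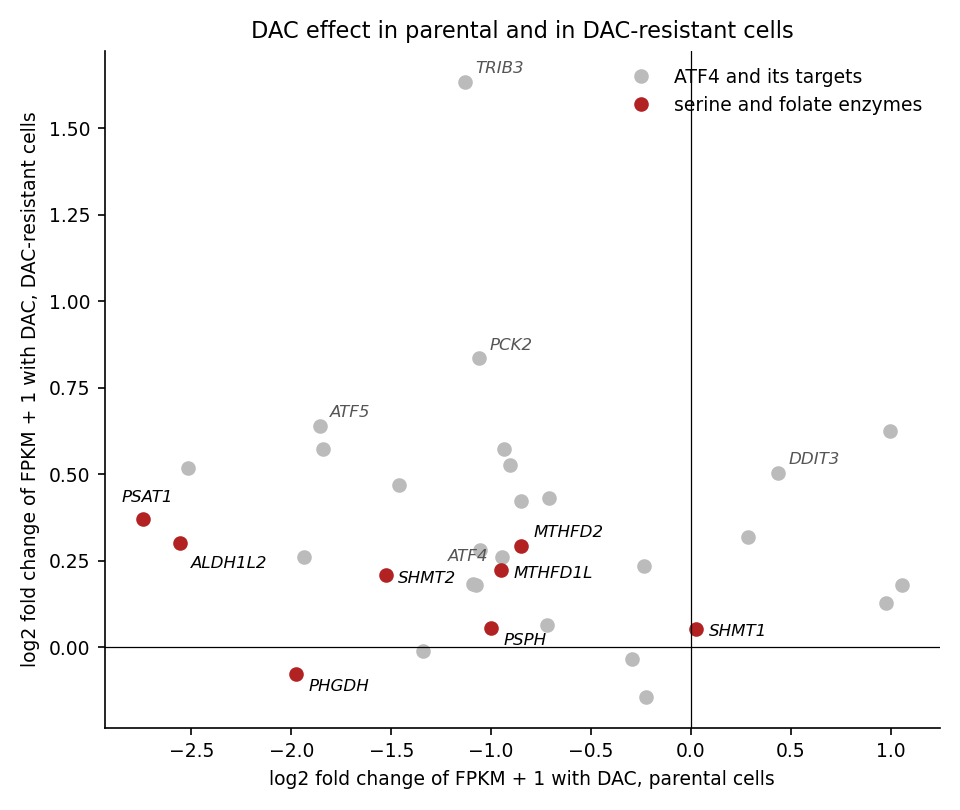
Log2 fold change with DAC in parental cells (horizontal) against DAC-resistant cells (vertical) for the 8 enzymes (red) and the 25 tested genes of ATF4 and its targets (grey). The axes share no library, and most points lie left of 0 and above 0, with TRIB3 highest at 1.63.

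In DMSO, 18 of the 25 ATF4 list genes were raised in DAC-resistant against parental cells and 3 were lowered, with a median of 0.39. ATF3 among the raised and NUPR1 among the lowered averaged under 5 FPKM. With only genes averaging at least 5 FPKM, 22 were tested, 17 raised and 2 lowered. The background is high here, as given above, with 31.3% of all genes raised and 26.2% lowered, and it holds for each list below. CHAC1, which degrades glutathione, was higher by 1.40 (adjusted p = 2.7e-06), the cysteinyl-tRNA synthetase CARS1 by 1.08 (adjusted p = 2.9e-06) and the proline synthesis enzyme PYCR1 by 1.01 (adjusted p = 1.3e-05). PCK2 had -0.03 (adjusted p = 0.732) and turned in direction with the scaling.

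The transport list holds carriers of serine, glycine and other amino acids. With DAC in DAC-resistant cells 7 of 16 were raised (43.8%) and none lowered (median 0.10), beside 5.88% and 5.35% of all genes, but 2 were raised with no filter on low values or with only the 4 libraries compared, and 1 to 2 without any one library. SLC6A9, the glycine transporter GlyT1, rose by 0.32 (adjusted p = 0.0443, called under 4 of 12 alternatives), the cystine transporter SLC7A11 by 0.28 (adjusted p = 0.00974) and the neutral amino acid transporter SLC38A2 by 0.25 (adjusted p = 0.00505). SLC7A11 is in the ATF4 list as well. SFXN1, which carries serine into mitochondria, was at 9.84 and 10.4 FPKM with DMSO and at 8.84 and 8.82 FPKM with DAC, a change of -0.18 (adjusted p = 0.0601).

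Against parental cells in DMSO, DAC-resistant cells had 11 of the 16 transporters raised (68.8%) and 2 lowered (12.5%), beside 31.3% and 26.2% of all genes. SLC7A10, a transporter of small neutral amino acids such as serine, was at 0.30 and 0.34 FPKM in parental cells and at 2.97 and 3.49 FPKM in DAC-resistant cells. It passed the filter on low values only through the DAC-resistant line, so no test is given, although the 11 raised include it. SLC38A1 was higher by 1.08 (adjusted p = 3.8e-07) and SLC7A5, which carries large neutral amino acids, by 0.71 (adjusted p = 2.0e-05). SFXN1 was higher by 0.24 (adjusted p = 0.00445), or by 0.15 to 0.33 over the alternatives.

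The folate cycle list holds other folate enzymes and carriers. With DAC in DAC-resistant cells none of 13 tested genes was raised and 3 were lowered (23.1%), with a median of -0.08, beside 5.88% and 5.35% of all genes. Without any one library, with TPM or with no filter on low values 0 were lowered. MTFMT, which formylates the mitochondrial initiator tRNA, was lower by a log2 fold change of -0.32 (adjusted p = 0.0415, called under 5 of 12 alternatives). MTHFD1, the cytosolic counterpart of the mitochondrial MTHFD enzymes, was at 13.3 and 13.2 FPKM with DMSO and at 12.4 and 12.6 FPKM with DAC, with an adjusted p of 0.287.

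In DMSO, 4 of the 13 folate cycle genes were raised (30.8%) and 5 lowered (38.5%) in DAC-resistant against parental cells, the raised share being near the 31.3% of all genes. Thymidylate synthase TYMS was at 35.4 and 35.5 FPKM in parental cells and at 17.8 and 16.5 FPKM in DAC-resistant cells, which is a log2 difference of -1.01 (adjusted p = 3.2e-05). The folate carrier SLC19A1 was higher by 0.81 (adjusted p = 8.9e-05), or by 0.75 to 1.24 over the alternatives. MTHFD1 was higher by 0.26 (adjusted p = 0.00206), or by 0.17 to 0.35 over the alternatives. MTHFS was at 1.39 and 1.31 FPKM in parental cells and at 0.27 and 0.42 FPKM in DAC-resistant cells. It passed the filter only through the parental line, so no test is given, although the 5 lowered include it. MTHFD2L and ALDH1L1, the paralogs of MTHFD2 and ALDH1L2, stayed at or under 0.73 and 0.05 FPKM in every library.

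In the list of glycine cleavage and serine use, 1 of 12 tested genes was raised (8.33%) and 2 were lowered (16.7%) with DAC in DAC-resistant cells, the raised share being near the 5.88% of all genes, of which 5.35% were lowered. The dihydrolipoyl dehydrogenase DLD rose by 0.23 (adjusted p = 0.0176), while the phosphatidylserine synthases PTDSS2 and PTDSS1 changed by -0.42 (adjusted p = 0.00932) and -0.18 (adjusted p = 0.0366). Those calls held under 8 of 13 alternatives for DLD, 9 of 12 for PTDSS2 and 5 of 13 for PTDSS1. In DMSO, 5 were raised (41.7%) and 1 was lowered (8.33%) against parental cells. Only 3 were raised without parental DMSO replicate 1 or DAC-resistant DMSO replicate 2, and under quantile normalization or upper-quartile scaling. Without parental DMSO replicate 2, 6 were raised. GCAT, which joins glycine and acetyl-CoA, was higher by 1.00 (adjusted p = 0.000354) and PTDSS2 by 0.39 (adjusted p = 0.00146). GCSH of the glycine cleavage system was at 0.95 and 0.73 FPKM in parental cells and at 2.46 and 2.22 FPKM in DAC-resistant cells, and passed the filter only through the latter. The counts in DMSO of these lists include SLC7A10, MTHFS and GCSH, 1 in each list. GLDC, the decarboxylase of that system, stayed at or under 0.27 FPKM and was not tested.

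The methionine cycle and transsulfuration list had 1 of 13 raised and 1 lowered with DAC in DAC-resistant cells, each 7.69% and near the 5.88% and 5.35% of all genes. GCLM, of glutathione synthesis, rose by 0.23 (adjusted p = 0.0321), and AHCY, which clears S-adenosylhomocysteine, changed by -0.19 (adjusted p = 0.0431). The call of GCLM held under 6 of 13 alternatives and that of AHCY under 5. In DMSO, 3 were raised (23.1%) and 6 lowered (46.2%) against parental cells. CTH, which makes cysteine, was higher by 0.86 (adjusted p = 0.00216), GNMT lower by a log2 fold change of -0.68 (adjusted p = 0.00121) and GCLM by -0.50 (adjusted p = 0.00018).

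**Figure D4:**
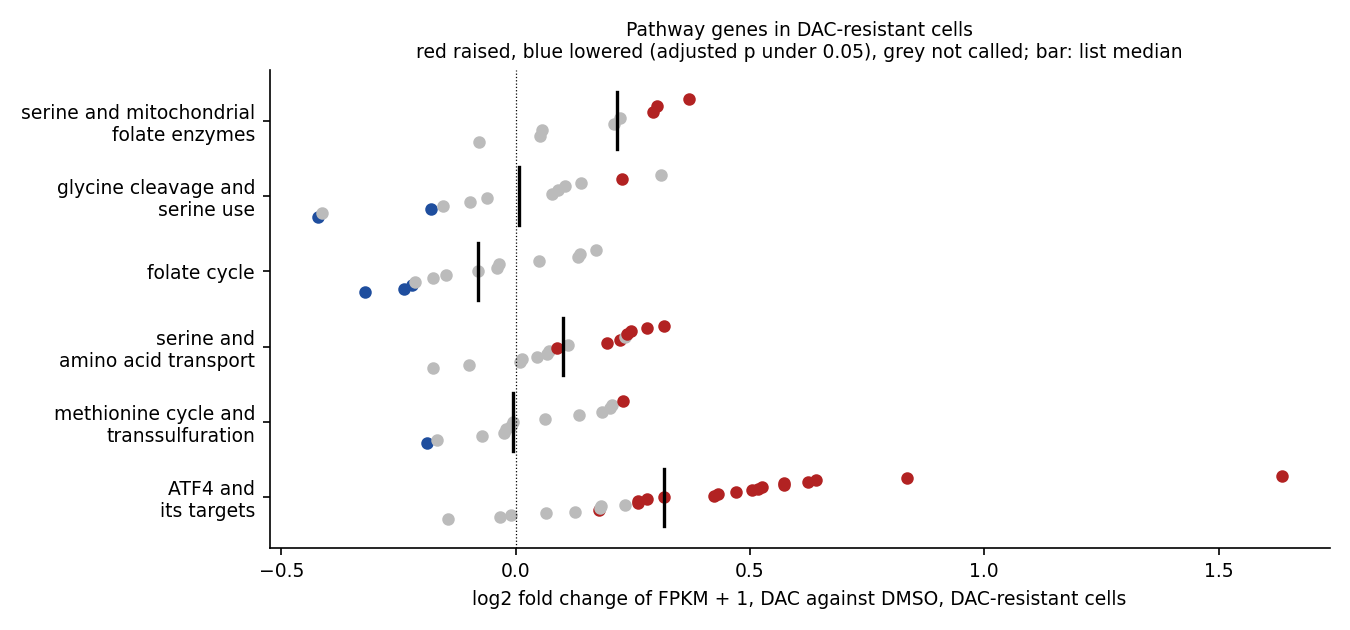
Log2 fold change of FPKM + 1 with DAC in DAC-resistant cells for each tested gene (points) of the 8 enzymes and of 5 pathway lists, with list medians as bars. Red genes were raised and blue lowered at an adjusted p under 0.05. The medians are 0.22 for the enzymes and 0.32 for ATF4 and its targets.

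Near-identical copies could share reads with 4 of the enzymes. Of 13 annotated pseudogenes of PSAT1, PSPH, SHMT1 and MTHFD2, 12 stayed under 1 FPKM in every library. PSPHP1, which is 261 bases long, was at 10.6 to 22.9 FPKM, from 87 to 181 reads, beside 689 to 1842 reads of PSPH. Reads shared between these 4 enzymes and their pseudogenes were not measured, and low pseudogene values do not measure them. The values of the 4 enzymes, PSPH among them, are therefore uncertain to an unknown extent.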

How the data were processed

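Total RNA of 8 libraries was sequenced after mRNA library preparation. Per the submitters' notes, cutadapt 1.9.1, HISAT2 2.1.0, SAMtools 1.6 and HTSeq 0.13.5 were used with hg38. The authors deposited FPKM values multiplied by 1000, which were divided by 1000 here; the counting strand is not given in the sources used here. With GENCODE exon lengths, 99.6% of the genes above 0 came out as whole reads in every library (tolerance 0.02 reads, or 0.03 where the length was solved from the steps), which gave depth and a voom alternative. Recovered totals were 104.0% to 104.5% of the authors' scaling totals.

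One limma 3.58.1 fit (R 4.3.3) of 4 group means on log2(FPKM + 1), with a variance trend, had 4 residual and 2.50 prior degrees of freedom. Genes, lists and markers were chosen with earlier results of these data known. Named pathway genes are up to 3 called genes with the largest change per list in the 2 tested comparisons, a fixed set (among them MTHFD1, MTHFD2L, ALDH1L1, TYMS, GLDC, SFXN1, ATF4, ASNS and DDIT3), pseudogenes of the 8 enzymes, and the 5 genes most like PSAT1. Some genes that this rule names are not reported here. On simulated counts of the DAC-resistant comparison (14899 genes), 51 of 100 genes changed by 0.4 on the log2 scale, 89 of 100 changed by 1.5 and 3 of 14699 unchanged ones were called. Replicate libraries were not duplicates (chi-square of 4.01 to 4.26 per gene). Alternatives were another pseudocount (0.1), no filter, a mean of at least 5 FPKM, TPM, quantile and upper-quartile scaling, a replicate block, only the 4 libraries compared, voom, a fold rule and leaving out each library.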

Additional observations from a re-analysis of the deposited data

Results flagged for a closer look

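For 5 of the 8 enzymes, both DAC libraries lay below both DMSO libraries in parental cells and above them in DAC-resistant cells, as did 13.1% of all genes tested. The log2 effect in DAC-resistant cells minus that in parental cells was 3.11 for PSAT1, 2.86 for ALDH1L2, 1.74 for SHMT2, 1.17 for MTHFD1L and 1.14 for MTHFD2. These differences were not tested, because the parental effect chose the genes.

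Among the 31 other named genes that passed the filter on low values, 14 had groups that did not overlap and lay in opposite directions in the 2 lines, and the difference was not tested either. Most of the 31 were named for a large called change in a tested comparison, which can favour groups that do not overlap. Nothing is therefore read from the 14. Over all genes tested, 13.1% lay lower with DAC in parental and higher in DAC-resistant cells. ASNS and MTHFD2L, under the filter, did so too. Lower in parental and higher in DAC-resistant cells were 10 of the 14, with a difference of 2.76 for TRIB3, 2.50 for ATF5, 2.20 for CHAC1, 1.9 for PCK2, 1.34 for SLC7A11, 1.31 for SLC6A9, 1.20 for ATF4, 0.78 for SLC7A5, 0.67 for SLC38A1 and 0.28 for DLD. The reverse, which 14% of all genes tested showed, held for PTDSS2 (-0.58), SFXN1 (-0.51), SLC7A10 (-0.49) and SLC19A1 (-0.49). Under the other pseudocounts, filters, scalings and fits, the difference moved by over 1.5 times for SLC6A9 (1.31 to 2.05), SLC7A10 (-1.30 to -0.21) and SLC19A1 (-0.76 to -0.37). The parental libraries of SLC7A10 and the parental DAC libraries of SLC6A9 lay under 1 FPKM.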

How the results depend on the processing

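With DAC in DAC-resistant cells, 3 of the 8 enzymes were called, 6 with voom on recovered reads, 2 without any one library and 0 by the fold rule (a log2 size of 1 at p up to 0.01). PSAT1 and MTHFD2 kept their calls under every alternative but the fold rule, with log2 fold changes of 0.32 to 0.40 and 0.27 to 0.33. In DMSO against parental cells, 5 of the 7 enzymes other than PSAT1 passed the threshold, 3 to 4 without any one library, 3 with TPM, 6 with quantile normalization, upper-quartile scaling or voom, and 0 by the fold rule. There PHGDH reversed to 0.0071 (TPM) and PSPH to -0.0503 (quantile normalization) and -0.0456 (upper-quartile scaling). The enzymes' other changes kept their direction, except that of SHMT1 with DAC in parental cells.

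Over all genes, 1673 were called with DAC in DAC-resistant cells, 434 with only the 4 libraries compared, 440 to 616 without any one library, 831 with no filter and 2919 with voom; the share raised was 52.4%, 65.1% with TPM, 48.2% under quantile normalization and 48.1% under upper-quartile scaling. The pathway lists had 31 calls there, 40 with voom, 24 with a replicate block, 23 with TPM, 16 with only the 4 libraries compared, 15 with no filter, 13 to 16 without any one library and 1 by the fold rule. With DAC in parental cells the share raised was 58.2%, but 45.1% under quantile normalization and 46.4% under upper-quartile scaling, and quantile normalization moved the median of all genes from 0.06 to -0.05. Replicate numbers did not pair the libraries (correlations of -0.02 to 0.02 between groups), and a replicate block left 3 enzymes called with DAC in DAC-resistant cells and 4 of the 7 in DMSO. With 2 libraries a group there are only 4 residual degrees of freedom, and genes with like changes differed in whether they were called.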
